A study of Mus musculus with 84 samples.

Results

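Extracellular ATP, ADP, UDP-sugars and adenosine are read by cells through P2X channels, P2Y receptors and adenosine receptors, and the 10 genes described here cover that system in small-intestinal MMC9s, the IL-9-producing mucosal mast cells of mice with food allergy. They are 3 adenosine receptors (Adora3, Adora2a and Adora2b), 3 ATP-gated P2X channels (P2rx1, P2rx4 and P2rx7), 3 G protein-coupled P2Y receptors (P2ry1, P2ry2 and P2ry14) and Entpd1, the ectonucleotidase CD39. The members were listed by gene name and are 10 of the 55471 genes in the count tables. All 10 had reads in every bulk library, and 8 of them reached the minimum of 50 reads in the larger library that ratios were read at.

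Bulk RNA-seq compared MMC9s from 3 kinds of BALB/c donor bone marrow progenitors: IL4RaY709F, a gain-of-function mutant of the IL-4 receptor alpha chain, IL4Ra-/-, its loss-of-function mutant, and WT. In all 3 the recipients were ovalbumin-sensitized WT mice given ovalbumin by mouth 7 times, 3 times per week, and the labels do not say whether the hosts' own WT mast cells had been removed. Each genotype had 1 library, and each library was pooled from 12 to 20 biological replicates. A further 81 WT MMC9s were sequenced one by one after an ovalbumin and alum model of food allergy, sorted as Lin- IL-4GFPhigh c-Kit+ ST2+ cells that lacked IL-17RB2 and had little β7-integrin. No animal, age or sex is given for the cells, so the 80 of them with at least 10000 gene reads were treated as 1 sample. The comparisons of the mutants address how IL-4 receptor signalling sets gene expression in MMC9s.

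Mast cells store and release mediators when IgE on their surface is cross-linked, and nucleotides and adenosine in the surrounding tissue modify that release. Damaged or activated cells release ATP, which opens P2X channels and acts on some P2Y receptors. CD39 on the cell surface removes phosphates from ATP and ADP to give AMP, CD73 (Nt5e) turns AMP into adenosine, and adenosine then acts on its own receptors. In rodents the receptor encoded by Adora3 couples to inhibitory G proteins and enhances mast cell degranulation through phosphoinositide 3-kinase gamma, whereas that encoded by Adora2a raises cAMP.

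The promoters of Adora3 and Entpd1 are printed because these genes were the members past the 2-fold rule in IL4RaY709F against both other libraries. They are the 250 bases before each RefSeq start on GRCm38.p6, on the plus strand, at chr3:105904171-105904420 for Adora3, at chr19:40612116-40612365 for the first Entpd1 start and at chr19:40659520-40659769 for the second. Capitals mark the letters TGANTCA, the site bound by AP-1 and by BATF dimers, searched on both strands.
Adora3: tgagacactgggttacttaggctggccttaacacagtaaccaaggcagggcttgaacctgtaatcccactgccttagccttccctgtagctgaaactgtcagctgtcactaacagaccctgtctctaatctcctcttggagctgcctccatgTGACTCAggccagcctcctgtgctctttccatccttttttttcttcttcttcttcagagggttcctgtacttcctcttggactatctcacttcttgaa
Entpd1 first start: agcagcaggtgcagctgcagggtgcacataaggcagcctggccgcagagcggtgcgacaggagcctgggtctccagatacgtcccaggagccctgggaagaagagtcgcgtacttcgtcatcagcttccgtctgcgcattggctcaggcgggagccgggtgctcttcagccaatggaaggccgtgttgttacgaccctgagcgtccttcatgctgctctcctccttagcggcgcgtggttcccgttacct
Entpd1 second start: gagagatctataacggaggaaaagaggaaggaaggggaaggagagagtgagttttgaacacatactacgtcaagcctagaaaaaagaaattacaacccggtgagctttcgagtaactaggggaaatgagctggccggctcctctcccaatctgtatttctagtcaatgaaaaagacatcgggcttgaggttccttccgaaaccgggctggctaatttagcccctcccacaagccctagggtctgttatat
The Adora3 promoter held TGACTCA at 98 to 92 bases before the start, and neither Entpd1 promoter held a match. Of 15 promoters found for 9 members (Adora2a had no entry), 4 held TGANTCA. They belonged to Adora3, to P2rx7 (TGAGTCA at 249 to 243 bases before its first start) and to 2 starts of P2ry14, and 6.75% of 32851 promoters of the same length held the same letters. GATA letters (TGATAA or AGATAA, either strand) were found in 4 promoters of 3 members (P2ry14, P2rx7 and P2rx1), against 16.6% of all promoters. The STAT6 site, TTC and GAA with 4 bases between them, was found in 0 member promoters against 5.85% of all promoters. The general STAT site, with 3 bases between them, was likewise in 0 member promoters against 7.02% of all. These windows show letters only, and no binding was measured. On GRCm38 the GENCODE gene model of Adora3 spans chr3:105870858-105908926 and so begins upstream of the RefSeq start used here.

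The bulk libraries held 2521791 (IL4RaY709F), 2330628 (IL4Ra-/-) and 2299793 (WT) reads in genes, and the 80 kept cells 163596 to 2210211 (median 1209300). Il4ra itself had 1831 reads in IL4RaY709F, 350 in IL4Ra-/- and 806 in WT, and Batf, a transcription factor named in the title of the series, had 1061, 131 and 344 reads in the same order. Il9 had 73, 1 and 13 reads. Among the 80 WT cells Il9 reached 10 reads in 1, which held 99.8% of the Il9 reads of the cells. The deleted part of Il4ra is not given in the labels, so its remaining reads in IL4Ra-/- do not check the genotype. The labelled cell type was checked on 16 mast cell markers, of which 14 were detected at 10 reads or more in at least 50% of the 80 cells, and the summed level of all 16 was 104738 CPM in IL4RaY709F, 69084 CPM in IL4Ra-/- and 73692 CPM in WT (CPM, reads per 1000000 after TMM scaling). Markers of other cells that were found in under 5% of the single cells differed between libraries: 13 of 16 macrophage or monocyte markers summed to 88.6, 553 and 172 CPM, with none at 0 in any library, and 8 of the 16 were detected in none of the cells. Over the whole list the sums were 744, 1286 and 797 CPM, of which Cx3cr1 alone, detected in 68 of the 80 cells, gave 647, 652 and 608 CPM. Over all 12 B cell or plasma cell markers the sums were 3030, 13395 and 6581 CPM. The 9 of 12 dendritic cell markers summed to 52, 154 and 58.2 CPM, and Cd209a was at 0 in both mutant libraries. The 13 of 14 epithelial markers summed to 25.8, 99.9 and 16.6 CPM, with Alpi at 0 in IL4RaY709F and WT. Corresponding sums were 10.3, 24.8 and 15.3 CPM for 6 of 12 B cell or plasma cell markers, and 3.87, 17.7 and 8.31 CPM for 10 of 14 T cell, NK cell or ILC markers, with Cd8a at 0 in IL4RaY709F and WT. For 8 of 11 granulocyte markers they were 36.5, 33 and 48.1 CPM, with Epx at 0 in all 3 libraries, and for 10 of 12 stromal or endothelial markers 9.46, 28.7 and 20.6 CPM. Over these whole lists IL4RaY709F was highest, at 441, 222 and 254 CPM for granulocyte and 383, 227 and 241 CPM for stromal or endothelial markers. The whole lists add genes found in more of the 80 WT cells, among them Cd200r3 (30 cells), Mcpt8 (21 cells) and Pecam1 (45 cells). IL4Ra-/- stayed highest over the whole dendritic cell (259, 787 and 303 CPM), epithelial (36.1, 111 and 29.3 CPM) and T cell, NK cell or ILC lists (279, 328 and 219 CPM). The part of these other cell types in the results below was not tested.

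**Figure D1:**
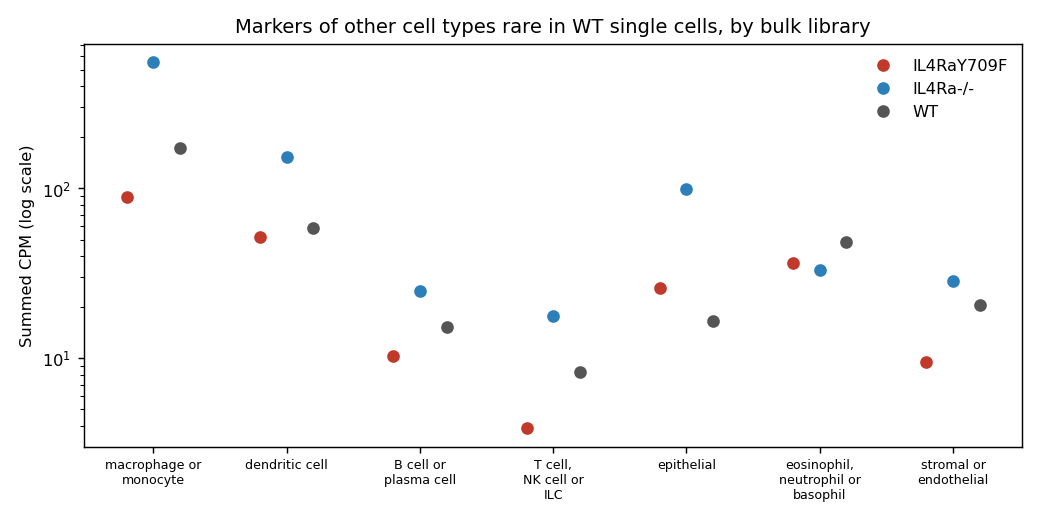
Summed level of markers of other cell types that were rare in the WT single cells, per bulk library (vertical axis, CPM on a log scale; 1 point per library). For 6 of the 7 lists the IL4Ra-/- point is the highest, reaching 553 CPM for macrophage or monocyte markers against 172 CPM in WT. Summed over the whole lists, which add genes found in more of the WT cells, granulocyte and stromal or endothelial markers were highest in IL4RaY709F.

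Per kilobase of exon and 1000000 gene reads (RPKM), the members ran from 0.608 to 105 in the WT library, the lowest with a counting interval of 0.223 to 1.32. P2rx7, the ATP-gated channel that needs high ATP and opens a large pore, was the highest at 105 RPKM, and Adora3 followed at 75.9 RPKM. Adora2a, at 63.2 RPKM, and P2rx1, at 57.6 RPKM, had overlapping counting intervals. P2rx4 stood at 19.7 RPKM, and P2ry14 at 13.2, Entpd1 at 11.5 and P2ry2 at 8.08 RPKM overlapped each with its neighbour. Adora2b at 1.41 and P2ry1 at 0.608 RPKM rested on 6 reads each. All intervals cover counting error only.

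The order differed at the top of the IL4RaY709F library, where Adora3 was first at 153 RPKM and P2rx7 second at 75.1 RPKM. Entpd1 came next after P2rx1 there at 23.5 RPKM, above P2rx4 at 17.2 and P2ry14 at 15.7 RPKM, which overlapped each other. In the IL4Ra-/- library P2rx7 was first at 91.6 RPKM, and Adora3 (57.9), P2rx1 (51.7) and Adora2a (46.8 RPKM) overlapped each with its neighbour. Entpd1 at 7.00 RPKM and P2ry2 at 4.81 RPKM overlapped there, below P2ry14 at 16.2 RPKM.

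**Figure D2:**
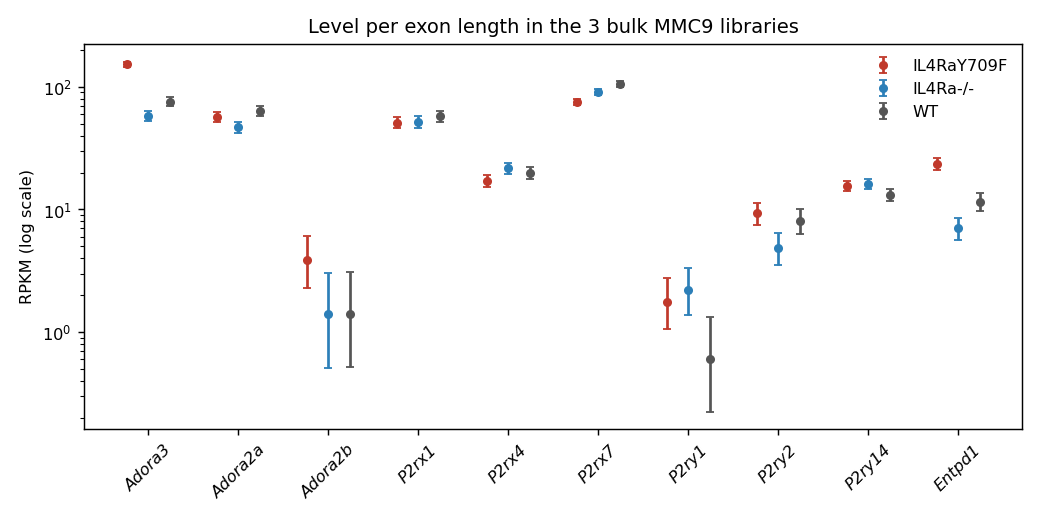
Level of each member per exon length in the IL4RaY709F, IL4Ra-/- and WT bulk libraries (vertical axis, RPKM on a log scale; points, 1 library each; bars, 95% counting intervals). Adora3 stands at 153 RPKM in IL4RaY709F, against 57.9 in IL4Ra-/- and 75.9 in WT, and Entpd1 at 23.5, 7.00 and 11.5 RPKM.

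Adora3 and Entpd1 were higher in IL4RaY709F than in WT MMC9s, and also higher than in IL4Ra-/- MMC9s. A gene passed the size rule when the larger library had at least 50 reads, the TMM-scaled ratio was at least 2-fold and its exact 95% counting interval excluded a ratio of 1. There was 1 library per genotype, so no ratio has a replicate check and none carries a p-value. In bulk samples fewer cells expressing a gene and less RNA per cell cannot be told apart. Between IL4RaY709F and WT, 2 of the 8 measured members passed upward, where 1.68% of 5964 genes did, and 0 passed downward, where 0.771% did. Between IL4Ra-/- and WT, 0 passed in either direction, against 2.43% of 6246 genes upward and 1.3% downward. IL4RaY709F over IL4Ra-/- gave 3 members upward, against 4.62% of 6319 genes, and 0 downward, against 3.5%. The 3 comparisons share libraries and are not independent of each other.

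The median log2 ratio of the 8 members was 0.13 for IL4RaY709F over WT, beside 0.02 over all genes tested, and -0.43 for IL4Ra-/- over WT, beside -0.08. For IL4RaY709F over IL4Ra-/- it was 0.38, beside 0.09. Scaling by total reads shifted every log2 ratio by -0.11, 0.13 and -0.24 in these 3 comparisons, in that order. With it, the genes past the rule were 71 upward and 69 downward rather than 100 and 46 for IL4RaY709F over WT, 207 and 45 rather than 152 and 81 for IL4Ra-/- over WT, and 145 and 359 rather than 292 and 221 for IL4RaY709F over IL4Ra-/-.

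**Figure D3:**
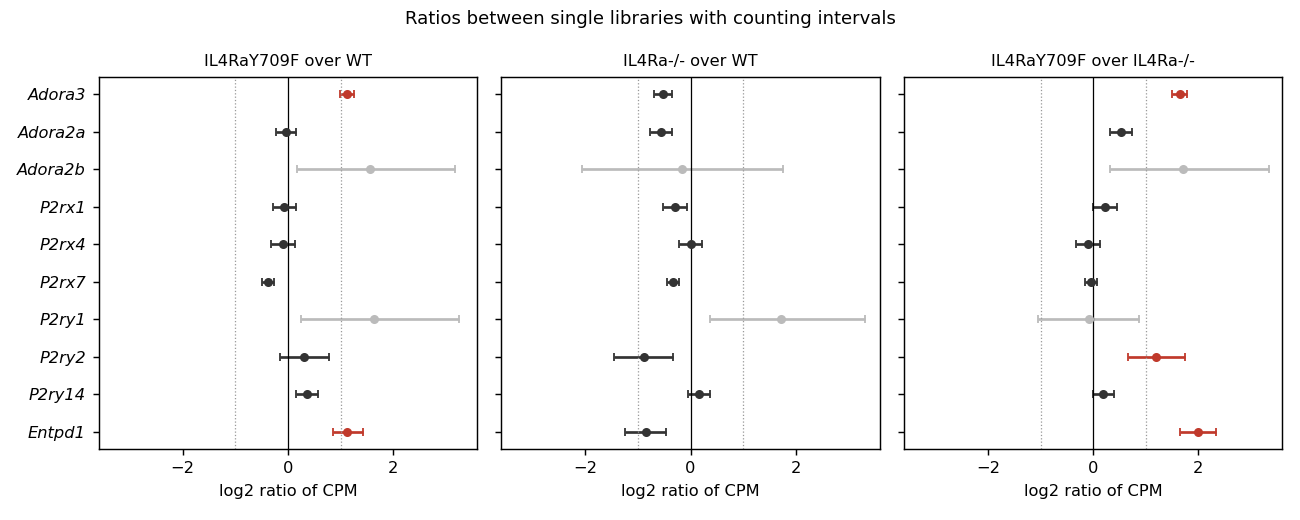
log2 ratio of CPM for each member in the 3 comparisons (horizontal axis; points, ratio of 1 library to another; bars, 95% counting intervals; dotted lines, 2-fold; red, past the size rule; grey, under 50 reads in both libraries). Adora3 and Entpd1 lie to the right of the 2-fold line in both panels with IL4RaY709F on top, and P2ry2 in 1 of them.

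Adora3 had 618 CPM (1437 reads) in IL4RaY709F, 198 CPM (503 reads) in IL4Ra-/- and 285 CPM (651 reads) in WT. IL4RaY709F stood apart above the other libraries, with IL4Ra-/- the lowest. The log2 ratio of IL4RaY709F over WT was 1.12 (95% counting interval 0.98 to 1.25), a 2.17-fold difference, and 68 of 5964 genes had a larger one. It lay close to the 2-fold limit, at 1.01 when scaled by total reads and 1.002 when TMM was taken over the 1427 genes read in at least 50% of the cells. IL4Ra-/- over WT gave -0.53 (-0.70 to -0.36), which did not reach 2-fold. IL4RaY709F over IL4Ra-/- gave 1.64 (1.496 to 1.79), or 3.12-fold, and 67 of 6319 genes had a larger ratio. Of the exon bases of Adora3, 20.9% are shared with Tmigd3 on the same strand, a gene given 15, 4 and 10 reads in IL4RaY709F, IL4Ra-/- and WT, so that the split of reads between these genes is uncertain.

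Adora2a encodes an adenosine receptor that couples to stimulatory G proteins. It had 189 CPM (440 reads) in IL4RaY709F, 131 CPM (334 reads) in IL4Ra-/- and 195 CPM (445 reads) in WT. The IL4RaY709F and WT libraries did not differ beyond counting error, with a log2 ratio of -0.04, and IL4Ra-/- was lower than WT by a log2 ratio of -0.57 (-0.78 to -0.36), short of 2-fold. Adora2b, a low-affinity adenosine receptor, had 18 reads in IL4RaY709F and 6 each in IL4Ra-/- and WT, or 7.74, 2.36 and 2.63 CPM. It stayed under the read minimum, and its log2 ratio of IL4RaY709F over WT was 1.56 with an interval of 0.16 to 3.18.

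Among the P2X channels, none passed the rule in any comparison. P2rx7 had 486 CPM (1130 reads) in IL4RaY709F, 501 CPM (1274 reads) in IL4Ra-/- and 633 CPM (1447 reads) in WT. Both mutant libraries were below WT, with log2 ratios of -0.38 (-0.50 to -0.27) for IL4RaY709F and -0.34 (-0.45 to -0.23) for IL4Ra-/-. P2rx4, a channel found on the surface and in lysosomes, had 131, 140 and 140 CPM in IL4RaY709F, IL4Ra-/- and WT, from 304, 356 and 319 reads. Its intervals against WT included no difference in both mutants. P2rx1, a rapidly desensitizing channel, had 145, 124 and 152 CPM in the same order, from 338, 316 and 348 reads. Its log2 ratios over WT were -0.07 in IL4RaY709F and -0.29 in IL4Ra-/-, and the sign of its ratio of IL4RaY709F over IL4Ra-/- turned with the scaling (0.23 with TMM, -0.02 with total reads). P2rx7 and P2rx4 lie 16111 bases apart on the plus strand of chromosome 5, at chr5:122643911-122691432 and chr5:122707544-122729738.

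P2ry14, the receptor for UDP-glucose and related sugars, had 188 CPM (437 reads) in IL4RaY709F, 164 CPM (418 reads) in IL4Ra-/- and 147 CPM (335 reads) in WT. Its log2 ratio of IL4RaY709F over WT was 0.36 (0.15 to 0.57), short of the rule. The ratio of IL4RaY709F over IL4Ra-/- was 0.19 with TMM and -0.05 with total reads. P2ry2, the receptor for ATP and UTP, had 39.6 CPM (92 reads) in IL4RaY709F, 17.3 CPM (44 reads) in IL4Ra-/- and 31.9 CPM (73 reads) in WT. IL4Ra-/- was the lowest library, and IL4RaY709F and WT did not differ beyond counting error (log2 ratio 0.31, -0.15 to 0.77). The log2 ratio of IL4RaY709F over IL4Ra-/- was 1.19 (0.66 to 1.75), or 2.29-fold, which passed the rule, but it was 0.95 with total reads and 0.92 with TMM over the genes of the cells, under 2-fold. IL4Ra-/- over WT gave -0.88 (-1.46 to -0.33), and 132 of 6246 genes had a lower ratio. P2ry1, the ADP receptor, had 19 reads in IL4RaY709F, 22 in IL4Ra-/- and 6 in WT (8.17, 8.65 and 2.63 CPM), under the read minimum. Its intervals against WT lay above 0 in both mutants, at 0.26 to 3.25 in IL4RaY709F and 0.37 to 3.31 in IL4Ra-/-.

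Entpd1, at chr19:40612366-40741602, had 142 CPM (330 reads) in IL4RaY709F, 35.8 CPM (91 reads) in IL4Ra-/- and 64.8 CPM (148 reads) in WT, the same order as Adora3. The IL4RaY709F library was 2.19-fold above WT, a log2 ratio of 1.13 (0.85 to 1.42), and 66 of 5964 genes had a larger one. Against IL4Ra-/- it was 3.96-fold higher, 1.99 on the log2 scale (1.65 to 2.34), with 45 of 6319 genes above it, the largest ratio among the 8 measured members. IL4Ra-/- over WT gave -0.86 (-1.25 to -0.47), which did not reach 2-fold. The ratio over WT was 1.02 on the log2 scale with total reads and with TMM over the genes of the cells.

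Of 12 other adenosine and purinergic receptors and relatives of them, 1 reached 50 reads in the first comparison and 2 in each of the others, and none passed the rule. The 3 with most reads were P2ry10 (66, 92 and 60 reads in IL4RaY709F, IL4Ra-/- and WT), Gpr34 (37, 56 and 30 reads) and P2ry10b (17, 38 and 15 reads). These 3 are counted as relatives, and not as receptors for nucleotides or adenosine. Adora1, P2rx2 and P2ry4 were at 0 reads in all 3 libraries. Of 32 enzymes, transporters and release genes, 7 were measured, with median log2 ratios of 0.24 (IL4RaY709F over WT), -0.44 (IL4Ra-/- over WT) and 0.65 (IL4RaY709F over IL4Ra-/-). Nt5e, the CD73 enzyme downstream of CD39, was singled out after its values were seen, at 3 reads in IL4RaY709F, 3 in IL4Ra-/- and 2 in WT. Of 35 G protein, PI3K gamma and cAMP relay genes, 29 were measured, with medians of -0.10, -0.09 and 0.02 in the same order. Only 1 of the 29 passed, downward in IL4RaY709F over IL4Ra-/-, where 3.5% of 6319 genes did. That gene was Prkar2b, a regulatory subunit of protein kinase A. It had 94 reads in IL4RaY709F, 221 in IL4Ra-/- and 107 in WT, and its log2 ratio of IL4RaY709F over IL4Ra-/- was -1.10 (-1.47 to -0.75).

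In the single WT MMC9s, P2ry14 and Adora3 were the members that reached 10 reads in the most cells. A gene was called detected at 10 reads or more, the shares carry exact (Clopper-Pearson) 95% intervals, and cells with under 10 reads may still express the gene. This limit takes no account of exon length, which is 11059 bases for P2ry14, 3729 for Adora3 and 2625 for P2rx1. The shares therefore do not rank the members by level. Per exon length, the summed reads of the 80 cells gave 75.1 RPKM for Adora3, 51.05 for P2rx1 and 42.6 for P2ry14. P2ry14 was detected in 62 of 80 cells (77.5%, 66.8 to 86.1) and Adora3 in 59 (73.8%, 62.7 to 83.0). P2rx7 was detected in 51 cells (63.8%, 52.2 to 74.2), P2rx4 in 44 (55%, 43.5 to 66.2) and P2rx1 in 37 (46.3%, 35 to 57.8). Entpd1 was detected in 27 cells (33.8%, 23.6 to 45.2) and Adora2a in 21 (26.3%, 17 to 37.3). Adora2b, with 8 cells, P2ry1, with 5, and P2ry2, with 4, were each detected in at most 10% of cells.

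Depth differed between cells with and without a member. Cells with Adora3 had a median of 1354250 gene reads, against 1026250 in cells without it. With every cell thinned to 150000 gene reads, P2ry14 was detected in 54 cells, Adora3 in 50, P2rx7 in 36, P2rx4 in 35, P2rx1 in 26, Entpd1 in 18 and Adora2a in 11. P2ry14 and Adora3 were then the members in at least 50% of cells, against 4 members without thinning. Immunoglobulin Igha, a plasma cell gene, had 10 reads or more in 27 cells, although 99.7% of its reads came from 2 cells. In the other 25 its median was 48.4 CPM and its highest 746 CPM. At this limit Entpd1, also in 27 cells, and Adora2a were not above Igha. With 20 reads as the limit Igha had 18 cells, against 22 for Entpd1 and 19 for Adora2a, and with thinned cells Igha had 9, against 18 for Entpd1 and 11 for Adora2a. Adora2b, P2ry1 and P2ry2 were in fewer cells than Igha at each of these settings. Their medians in cells with 10 reads or more were 167, 264 and 184 CPM, against 48.4 CPM for Igha in those 25. A count of Igha cells cannot decide whether the few cells with these 3 genes are background, and this was not tested. With a single read counted, Igha was in 76 cells, against 73 for Adora3, 73 for P2rx7 and 51 for Entpd1. The 2 cells had 48.1% and 73.2% immunoglobulin reads, with 41 and 12 reads of Kit and 98 and 76 of Cpa3, and no member detected but Entpd1, at 10 reads in one of them. Without them Adora3 was detected in 75.6% of cells and Entpd1 in 33.3%. In 11 cells over 20% of reads were mitochondrial, and without these P2ry14 was detected in 85.5%, Adora3 in 79.7%, P2rx1 in 50.7% and Entpd1 in 39.1% of cells.

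**Figure D4:**
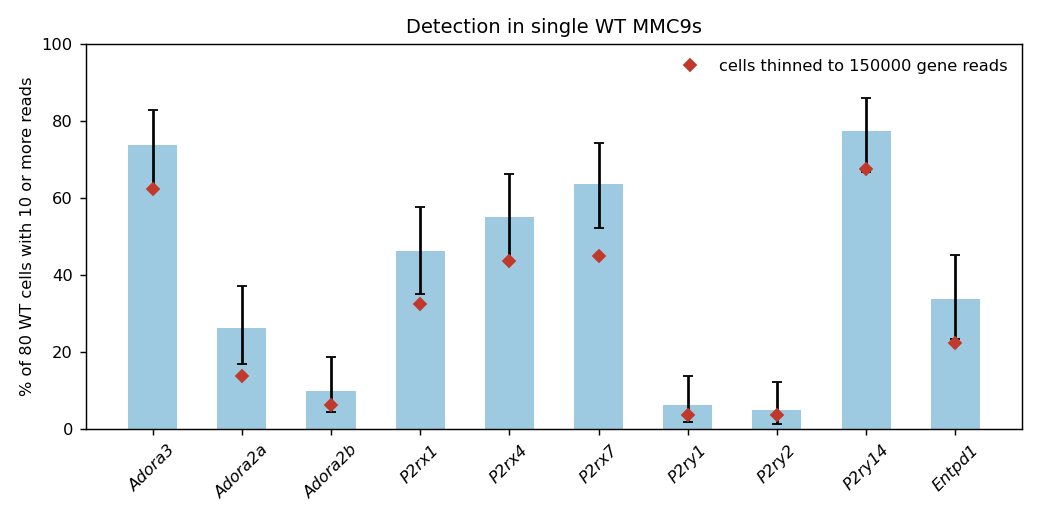
Share of the 80 WT cells with 10 or more reads of each member (bars from 0; lines, exact 95% intervals) and the share after each cell was thinned to 150000 gene reads (red diamonds). P2ry14 (77.5%) and Adora3 (73.8%) are the highest, and P2ry2 (5%) the lowest. The shares take no account of exon length.

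Levels differed widely from cell to cell. Each of the 10 members, taken by itself, was at 0 CPM in some of the cells (per 1000000 gene reads of the cell). CPM is not divided by exon length, so the medians below do not rank the members by level. P2ry14 had a median of 287 CPM and a highest cell of 3959 CPM, and Adora3 a median of 138 and a highest of 1682 CPM. P2rx7 had a median of 46.6 and a highest of 1496 CPM, P2rx4 38.6 and 2544 CPM, P2rx1 3.50 and 1866 CPM, and Entpd1 1.08 and 2372 CPM. The medians of Adora2a, Adora2b, P2ry1 and P2ry2 were 0 CPM, with highest cells at 384, 512, 1408 and 989 CPM. Reads of Adora3 and P2ry14 were spread over more cells, with 7.17% and 8.19% in the highest cell and 40.6% and 39.7% in the highest 8. A single cell held 25.9% of Adora2b reads, 28.7% of Entpd1 reads, 44.5% of P2ry1 reads and 65.7% of P2ry2 reads. The summed level of these genes therefore rests on few cells.

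**Figure D5:**
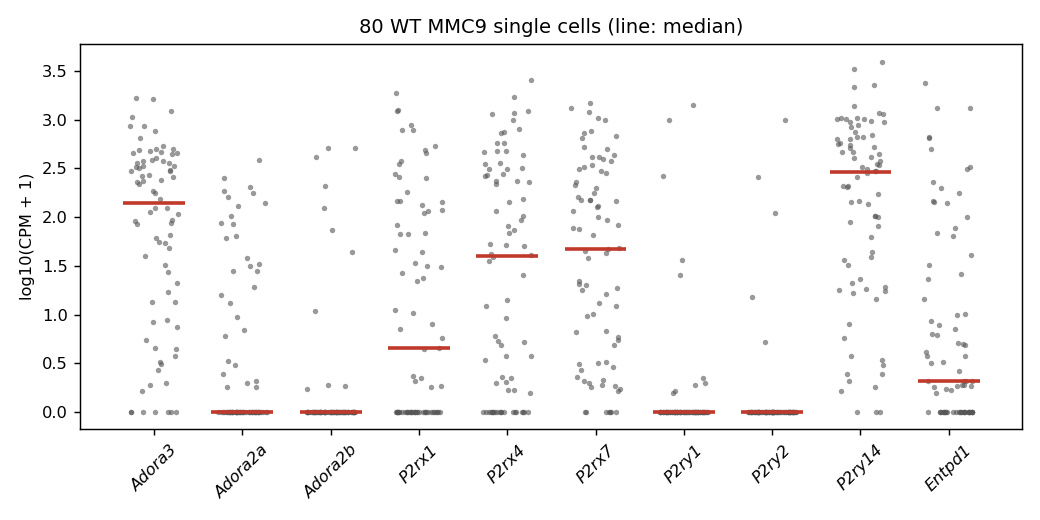
Level of each member in each of the 80 WT cells (vertical axis, log10 of CPM plus 1; points, single cells; line, median). P2ry14 and Adora3 have medians of 287 and 138 CPM, and the medians of Adora2a, Adora2b, P2ry1 and P2ry2 lie at 0. CPM is not divided by exon length.

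Most cells carried several receptor classes. The median cell had 4 of the 10 members detected and the range was 0 to 7, with 3 cells at 0. At least 1 adenosine receptor was detected in 65 cells, at least 1 P2X channel in 68 and at least 1 P2Y receptor in 62, and 52 cells had all 3 classes. All 62 cells with a P2Y receptor had P2ry14, the member with the longest exons, so the P2Y part of these counts rests on that gene. Cells with more genes read also had more members (Spearman rho 0.63 over 80 cells, as a description of cells that differ in depth). Both Entpd1 and Adora3 were detected in 22 cells, 81.5% of the cells with Entpd1 and 37.3% of those with Adora3. Over all 80 cells Adora3 was in 73.8% and Entpd1 in 33.8%, and the rho of their CPM was 0.07. P2rx4 and P2rx7 were both found in 33 cells, 75% of the cells with P2rx4 and 64.7% of those with P2rx7. Over all 80 cells P2rx7 was in 63.8% and P2rx4 in 55%, with a rho of 0.27. Adora3 and Adora2a were both found in 15 cells, and Adora2a without Adora3 in 6.

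Between members, the highest rank correlation of CPM across the 80 cells was that of Adora3 and P2rx4 (Spearman rho 0.38). Over 3625 genes detected in at least 20 cells, the genes whose levels were most like those of Adora3 were Gpx4-ps2 (0.45), Cma1 (0.45), which encodes the protease chymase 1, and Gpx4 (0.45). For Entpd1 they were Tbk1 (0.48), Cox7a2l (0.46) and Rbm28 (0.44), for Adora2a Smpx (0.43), Gm28875 (0.40) and Papss2 (0.38), and for P2rx1 Sdf4 (0.50), Prkcd (0.47) and Gsdme (0.43). Ap2b1 (0.48) and Rspry1 (0.47) were among the nearest to P2rx4. P2rx7 was nearest to Scp2-ps2 (0.45), Scp2 (0.41) and Adgre5 (0.40), and P2ry14 to Kmt2d (0.45), Lat (0.44) and Runx1 (0.43). The median rho of a member with all these genes lay between 0.03 for Adora2a and 0.14 for P2rx4. The pseudogenes Gpx4-ps2 and Scp2-ps2 may share reads with their parent genes, and all values are descriptions of cells that share one source and differ in depth.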

How the data were processed

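Small-intestinal MMC9s were measured by RNA-seq in 3 pooled bulk libraries and 81 single WT cells. The authors deposited raw read counts per gene as whole numbers, without normalization. Per the submitters' processing notes, HISAT and featureCounts (Subread 2.0.0) were used, and GRCm38 and mm9 are named without roles. Of 55471 gene IDs, 55144 were in GENCODE M21 and 54814 had its GRCm38 coordinates. The sources used here give neither the strand setting nor the handling of multimapping reads or molecular identifiers.

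The counts were scaled with TMM (edgeR 4.0.16), and log2 ratios carry exact conditional binomial (Clopper-Pearson) 95% intervals, which cover counting error only. RPKM used exon lengths and total gene reads. No test between genotypes was possible with 1 library each, so no p-value was computed. A count of 0 has a floor of 3 reads. The calculation recovered known ratios on simulated counts that held counting error only and had known library sizes. That check covers neither the scaling nor the spread between animals. Alternatives were total reads, DESeq2 1.42.0 size factors, TMM over genes of the cells, other read minimums, a 1.5-fold limit, other detection limits, thinning and other cell filters. No doublet caller was run and no clusters were formed. Promoters came from RefSeq (GRCm38.p6).

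The members, gene lists and rules were chosen with earlier results of these data known. Named genes were the 10 members, Il4ra, Batf and Il9, genes of 3 further lists past the size rule (otherwise the 3 with most reads), and for each member found in at least 20 cells the 3 genes with the highest Spearman rho. Some genes that this rule names are not reported here.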

Additional observations from a re-analysis of the deposited data

How the results depend on the processing

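Adora3 and Entpd1 stayed past the 2-fold rule in IL4RaY709F over WT and over IL4Ra-/- under the 3 other scalings, and no member past the rule changed sign. Scaling by total reads or by TMM over the genes of the cells moved the median of the 8 members to -0.30 and -0.27 for IL4Ra-/- over WT, and to 0.13 and 0.10 for IL4RaY709F over IL4Ra-/-. Total reads gave 45 genes lower in IL4Ra-/- than in WT, and 145 higher and 359 lower in IL4RaY709F than in IL4Ra-/-. TMM over the genes of the cells gave 71 genes lower in IL4RaY709F than in WT, 42 lower in IL4Ra-/- than in WT, and 136 higher and 389 lower in IL4RaY709F than in IL4Ra-/-. A minimum of 20 reads gave 181 genes higher and 127 lower for IL4RaY709F over WT, 420 higher and 167 lower for IL4Ra-/- over WT, with 1 member higher (P2ry1), and 544 lower for IL4RaY709F over IL4Ra-/-. No minimum gave 252 higher and 258 lower, with 4 members higher (Adora3, Adora2b, P2ry1 and Entpd1), 630 higher and 267 lower, with 1 member higher, and 556 higher and 871 lower, with 4 members higher (Adora3, Adora2b, P2ry2 and Entpd1), in the same order. A 1.5-fold limit gave 367 higher and 212 lower, 407 higher and 553 lower, with 2 members lower (P2ry2 and Entpd1), and 923 higher and 528 lower. Thinning left 2 members in at least 50% of the cells, and a limit of 1 read gave 6, with Entpd1 in 63.8% and P2rx7 and Adora3 in 91.3% each. Limits of 5 and 20 reads gave 4, as with 10 reads. Of these shifts, those under another minimum, fold or detection limit follow from the changed rule. Another scaling shifts every log2 ratio of a comparison by the same amount, and the medians and counts of genes moved with it. Thinning leaves fewer reads per cell. Why the scalings differ from each other was not tested.

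No paired analysis was possible because each genotype had 1 library. The cell filters on immunoglobulin and mitochondrial reads were chosen after seeing the data. Low read counts limited the ratios of Adora2b and P2ry1, which had at most 22 reads in a bulk library.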

Other observations

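The summed reads of the 80 WT cells, from the ovalbumin and alum model, and the WT bulk library, from the transfer model, held some members at unlike levels. Per 1000000 gene reads, Adora3 stood at 280 in the cells and 283 in WT bulk, and P2rx1 at 134 and 151. P2ry14 stood at 471 in the cells and 146 in WT bulk, P2rx7 at 218 and 629, and Adora2a at 27.1 and 193. The widest gaps by fold were those of P2ry1, at 32.04 and 2.61, and Adora2b, at 21.2 and 2.61. Both genes rested on 6 reads in WT bulk, and their highest cells held 44.5% and 25.9% of their reads in the cells. Per exon length, Adora2b stood at 11.5 and Adora2a at 8.86 RPKM in the summed cells, against 1.41 and 63.2 RPKM in WT bulk. Over 13099 genes 50.6% differed by more than 2-fold between these sources, which differ in model, sort and library preparation.

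P2ry6 and P2ry13, receptors for UDP and ADP, were singled out after their values were seen. P2ry6 had 3 reads in IL4RaY709F, 13 in IL4Ra-/- and 2 in WT, and P2ry13 had 0, 10 and 3 reads. Neither had a read in any of the 80 WT cells. The macrophage or monocyte markers rare in the cells were likewise highest in IL4Ra-/-, and their part in these reads was not tested.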
